A study of Mus musculus with 4 samples.

Results

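Goblet cells are the mucus-secreting cells of the intestinal epithelium. The genes described are 10 products and regulators of these cells (Muc2, Tff3, Agr2, Fcgbp, Spdef, Zg16, Retnlb, Spink4, Ern2 and Creb3l1), chosen by name and matched by symbol to the authors' expression table, in which all 10 of 22466 symbols kept were found and all 10 passed the filter on low values. The RNA was isolated from the epithelium of the jejunum of adult mice, on a mixed background (129xC57/Bl6xSvJ), in 2 libraries of Cre-negative controls and 2 labelled Hnf4a;Cdx2 double knockout, which the labels call independent biological replicates. Every mouse, controls included, received 1 mg of tamoxifen on 5 days to activate Cre, and 5 mM EDTA was used to free the epithelium. The labels do not name the promoter that drives Cre, the exons removed, or the ages within adulthood. Values are FPKM, which divide the fragments of a gene by its length and by the size of the library, so levels of different genes can be set side by side.

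Goblet cells arise from crypt progenitors in which Notch signalling is low and the transcription factor Atoh1 is active, and Spdef then drives their maturation. Their main product is the gel-forming mucin Muc2, a very large glycoprotein that is folded and cross-linked in the endoplasmic reticulum, O-glycosylated in the Golgi and packed into granules with Tff3, Fcgbp and Zg16. That load makes the cell depend on helpers of the endoplasmic reticulum, among them the disulfide isomerase family member Agr2, the stress sensor Ern2 (IRE1 beta) and the membrane-bound factor Creb3l1 (OASIS).

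As a check of the labels, Hnf4a stood at 156 and 202 FPKM in controls; the labelled double knockouts had 31.6 and 48.2. Cdx2 stood at 70.9 and 65.2 FPKM in controls and at 160 and 161 in the labelled double knockouts, opposite to what that label says. Exons that were not removed also count toward a gene's value, so it does not show whether Cdx2 was deleted, and every direction below rests on the labels. The tissue label was checked on fixed markers, for epithelium and not for the region of the gut. The enterocyte genes Fabp1 and Apoa1 lay at 5532 to 13836 FPKM in every library, while 7 of 8 stromal and vessel markers averaged under 1 FPKM. Not every enterocyte marker stayed high. Of the 11 tested, 4 were called lower in the labelled double knockouts, among them Lct (300 and 283 FPKM in controls, against 2.70 and 0.742). Absolute depth is unknown, but the steps between the lowest values put control 2, labelled double knockout 1 and labelled double knockout 2 at 0.779, 0.669 and 0.460 times the depth of control 1. With 2 libraries against 2, an exact permutation test cannot give a p under 0.33, so tests are from limma across all genes, two-sided, on log2(FPKM + 1), with Benjamini-Hochberg adjustment over the 10886 genes tested. Fold changes on that scale understate the change of genes with low levels, and ± gives the SD for group means and the SE for fold changes (n = 2 libraries per group).

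Of the 10 goblet cell genes, Ern2 was the only one called different between the groups (limma, adjusted p under 0.05), 1 of 10, against 9.65% of all genes tested (3.79% called higher and 5.85% lower). Neither the mucus proteins nor Spdef passed the test. The median log2 fold change of the 10 was 0.27, with 6 above 0, beside a median of 0.02 over all genes tested. In 5 of the 10 the groups did not overlap (Muc2 and Spdef lower, and Agr2, Ern2 and Creb3l1 higher, in the labelled double knockouts), beside 60.7% of all genes tested (31.2% higher and 29.5% lower). For 6 of the 10 (Muc2, Tff3, Agr2, Fcgbp, Spdef and Creb3l1) the 95% interval of the log2 fold change lay within 1 unit of 0 on both sides, and for Zg16, Spink4 and Retnlb it was wider. The RNA is from whole epithelium, so fewer goblet cells and less RNA per goblet cell cannot be told apart.

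**Figure D1:**
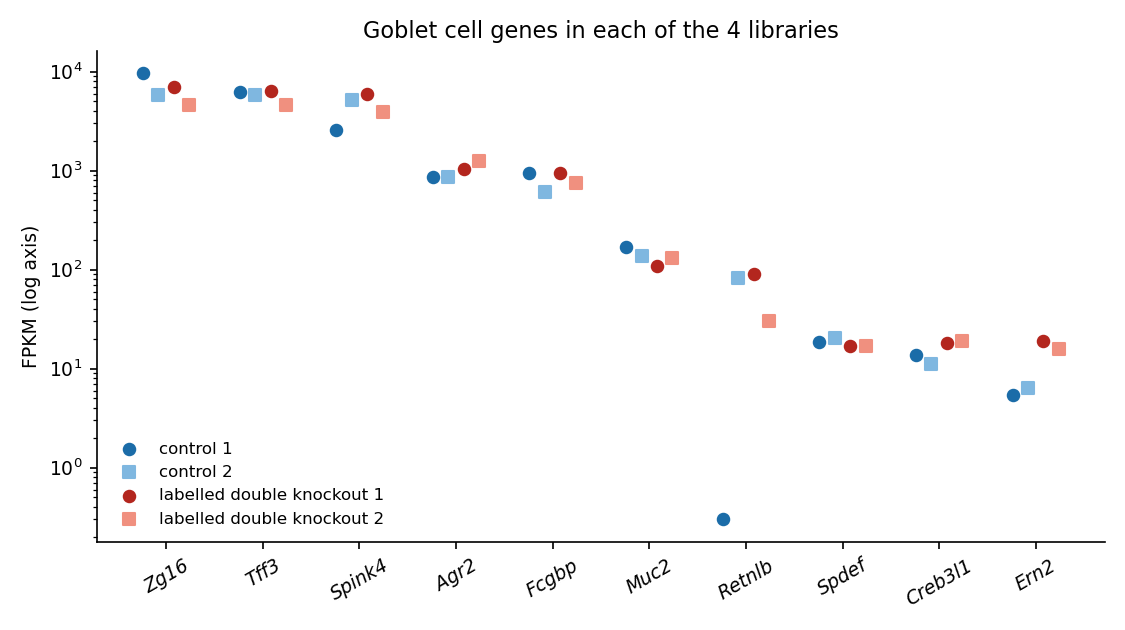
FPKM (log axis) of the 10 goblet cell genes in each library, ordered by mean level; circles are replicate 1 and squares replicate 2 of each group. Ern2 lies higher in both labelled double knockouts (15.7 and 18.95 FPKM) than in both controls (5.39 and 6.33), and Retnlb lies at 0.301 FPKM in control 1 and at 30.4 or more in the other libraries.

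**Figure D2:**
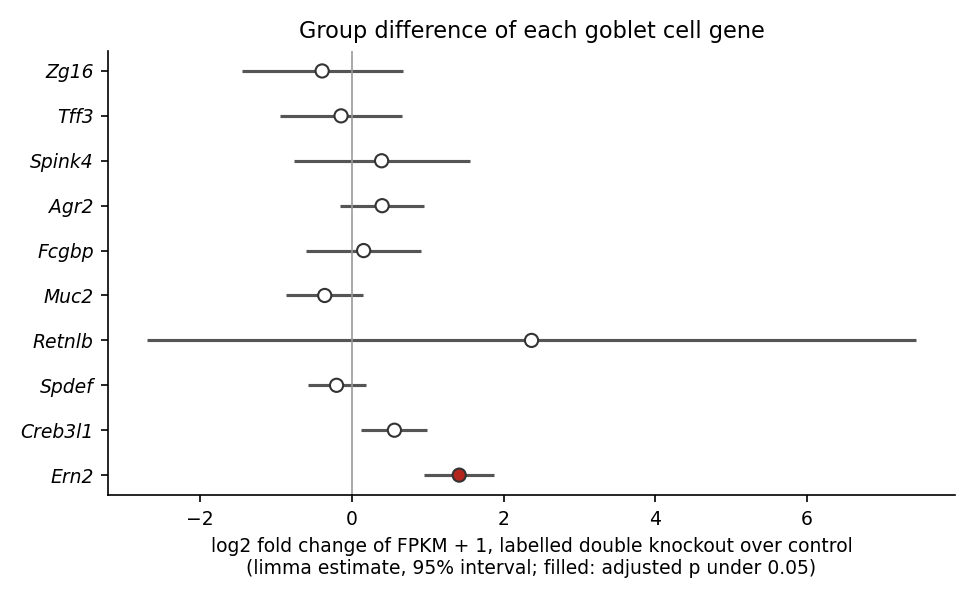
Log2 fold change of FPKM + 1 (labelled double knockout over control, limma) for each gene, with its 95% interval; the filled point passed an adjusted p of 0.05. The interval of Ern2 runs from 0.96 to 1.87, that of Creb3l1 from 0.13 to 1.00 without passing the adjusted test, and that of Retnlb from -2.70 to 7.44.

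By mean FPKM the order was Zg16, Tff3, Spink4, Agr2, Fcgbp, Muc2, Retnlb, Spdef, Creb3l1 and Ern2. The ranges over the 4 libraries overlapped between the neighbours Zg16 and Tff3, Tff3 and Spink4, Agr2 and Fcgbp, Retnlb and Spdef, Spdef and Creb3l1, and Creb3l1 and Ern2. Zg16, Tff3 and Spink4 ranked 8, 11 and 12 among the 10886 genes tested, whereas Ern2 ranked 5417. The 10 genes summed to 3.17% and 2.77% of all FPKM in controls and to 3.13% and 2.38% in the labelled double knockouts, so the groups overlapped in that share.

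Muc2 (chromosome 7, 148876239 to 148940599, mm9), the gel-forming mucin, stood at 170 and 139 FPKM in controls and at 109 and 131 in the labelled double knockouts. Both labelled double knockouts lay below both controls, but by little: the lower control and the higher labelled double knockout were 139 and 131 FPKM. The log2 fold change was -0.36 ± 0.20 (95% interval -0.86 to 0.15, limma, adjusted p = 0.303). Fcgbp (chromosome 7, 28856255 to 28905883), an Fc-binding protein that joins the mucus gel, stood at 945 and 607 FPKM in controls and at 943 and 754.7 in the labelled double knockouts, with full overlap. Its log2 fold change was 0.16 ± 0.30 (95% interval -0.61 to 0.92, limma, adjusted p = 0.770), and it became -0.16 when control replicate 2 was left out and -0.0044 when double knockout replicate 1 was.

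Zg16 (chromosome 7, 134193670 to 134195491), a lectin-like granule protein that binds the wall of gram-positive bacteria, stood at 9678 and 5776 FPKM in controls and at 7016 and 4638 in the labelled double knockouts. Replicate 1 was the higher library within each group, and the groups overlapped (log2 fold change -0.39 ± 0.41, 95% interval -1.45 to 0.67, limma, adjusted p = 0.582). Without control replicate 1 the log2 fold change of Zg16 was -0.018. Tff3 (chromosome 17, 31262251 to 31266556), the intestinal trefoil peptide, stood at 6178 and 5776 FPKM in controls and at 6369 and 4607 in the labelled double knockouts. The labelled double knockouts held both the highest and the lowest value (log2 fold change -0.14 ± 0.31, 95% interval -0.94 to 0.66, limma, adjusted p = 0.805). Without double knockout replicate 2 it was 0.092, and with the values estimated for each library alone 0.0058. Set against Muc2 within each library, Tff3 was 36.3 and 41.6 times as high in controls and 58.2 and 35.1 times in the labelled double knockouts.

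Spink4 (chromosome 4, 40867089 to 40878428), a secreted protein with a Kazal-type inhibitor domain, stood at 2590 and 5164 FPKM in controls and at 5942 and 3882 in the labelled double knockouts. Control 1 was the lowest library and the other 3 overlapped. The log2 fold change was 0.39 ± 0.45 (95% interval -0.77 to 1.55, limma, adjusted p = 0.614), and it was -0.10 without control replicate 1. The controls differed from each other by 1.00 on the log2 scale, a gap exceeded by 3.50% of all genes tested.

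Retnlb (chromosome 16, 48816969 to 48819005), the goblet cell hormone RELM beta known for its induction in type 2 immunity and worm infection, divided the controls. It stood at 0.301 FPKM in control 1 and at 82.4 in control 2, against 91.1 and 30.4 in the labelled double knockouts. Control 1 was thus far below the other 3, which overlapped across groups. The same order held in the values estimated for each library alone (0.246 and 58.0 FPKM in controls, 75.96 and 26.99 in the labelled double knockouts). The log2 gap between the controls was 6.002, and 4 of the 10886 genes tested had a wider one. Its log2 fold change of 2.37 ± 1.97 (95% interval -2.70 to 7.44, limma, adjusted p = 0.483) turned to -0.63 without control replicate 1.

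Other genes set the same controls apart, and their part in the Retnlb values was not tested. Wide gaps were not confined to tuft and mast cell genes. The defensins Defa20 and Defa21 stood at 0 and 0.465 FPKM in control 1 and at 126 and 246 in control 2. St3gal4, of the O-glycosylation list, stood at 8.23 and 687 FPKM in controls and at 183 and 47.1 in the labelled double knockouts. Of the 14 Paneth markers 7 were higher in control 2. All 8 tested tuft cell markers were higher in control 2 than in control 1, with a median log2 gap of 1.59, among them Trpm5 (6.25 and 25.3 FPKM), a cation channel of chemosensory cells. The mast cell proteases Mcpt1, Mcpt2 and Cpa3 summed to 47.7 FPKM in control 1, 206 in control 2, and 16.8 and 11.6 in the labelled double knockouts. Clca3, which RefSeq (GRCm38.p6) lists as an older symbol of the goblet cell secreted gene Clca1 (gob-5), stood at 841 and 2547 FPKM in controls and at 502 and 875 in the labelled double knockouts (limma, adjusted p = 0.282). Ang4, an antimicrobial ribonuclease of Paneth and goblet cells, stood at 894 and 3724 FPKM in controls and at 44.3 and 565 in the labelled double knockouts (limma, adjusted p = 0.170). The authors' deposited comparison calls Ang4 (q = 0.000868) and not Clca3 (q = 0.296). In the labelled double knockouts Retnlb stood at 91.1 and 30.4 FPKM, against 82.4 in control 2. The protease sum of both labelled double knockouts lay below that of both controls. Crypt markers went the other way, with 8 of 8 lower in control 2 at a median log2 gap of -0.88. Of the cytokines that induce Retnlb, Il13 was listed at 0 in every library and Il4 at 0 in all but control 2 (0.190 FPKM). All 4 tested genes of the short list for interleukin 4 and 13 signalling were higher in control 2 than in control 1. Their median log2 gap was 0.39, against -0.0052 over all genes tested, where the median size of the gap in either direction was 0.227. The O-glycosylation list leaned the same way, with 20 of 24 tested genes higher in control 2 (median log2 gap 0.27). Between the labelled double knockouts and the controls, none of the 4 interleukin signalling genes was called (limma, and 0 at an unadjusted p under 0.05, against 28.3% of all genes tested). The most abundant member of the list, the receptor chain Il13ra1, stood at 56.5 and 82.1 FPKM in controls and 56.3 and 50.04 in the labelled double knockouts.

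**Figure D3:**
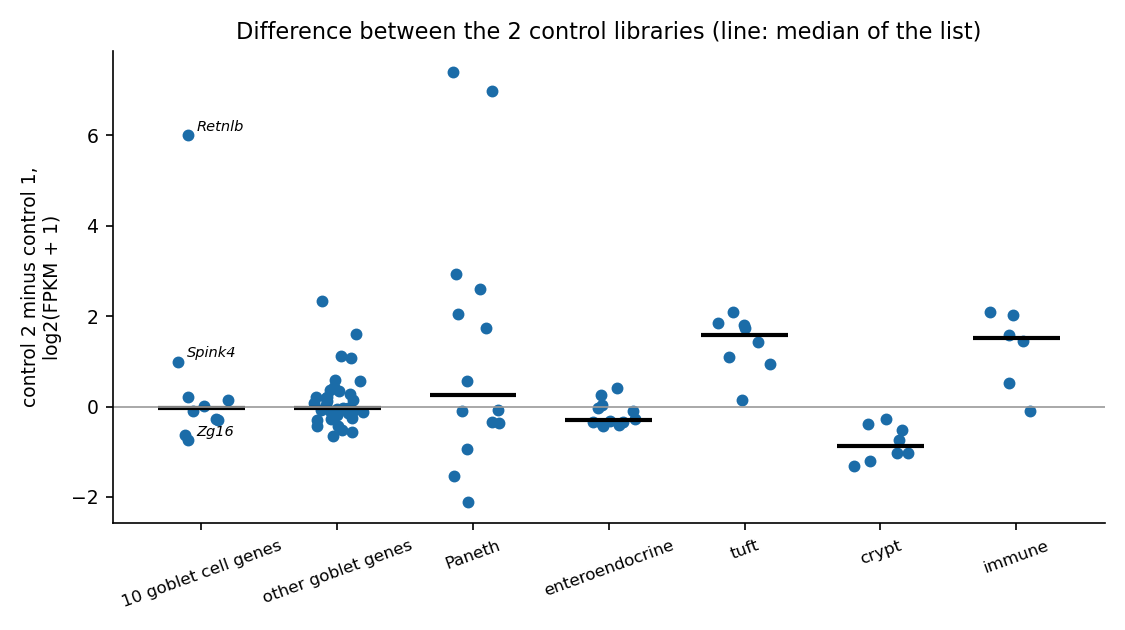
Log2(FPKM + 1) of control 2 minus control 1 for the tested genes of 7 lists; each point is a gene and the line is the list's median. Retnlb lies at 6.002 and Spink4 at 1.00 while the median of the 10 goblet cell genes is -0.04; the tuft median is 1.59 and the crypt median -0.88.

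Spdef (chromosome 17, 27851392 to 27865896), the ETS-family factor of goblet and Paneth cell maturation, stood at 18.7 and 20.6 FPKM in controls and at 16.9 and 17.0 in the labelled double knockouts. Both labelled double knockouts lay just below both controls, with a log2 fold change of -0.20 ± 0.15 (95% interval -0.58 to 0.18, limma, adjusted p = 0.430). Its ETS relatives Elf3 and Ehf, factors of many epithelia, had log2 fold changes of 0.49 and 0.33 (limma, adjusted p = 0.380 and 0.469).

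Agr2 (chromosome 12, 36719512 to 36730668), the disulfide isomerase family member needed for Muc2 assembly, stood at 863 and 868 FPKM in controls and at 1037 and 1259 in the labelled double knockouts. The controls were nearly equal and both lay below the labelled double knockouts, but the log2 fold change of 0.40 ± 0.22 did not pass (95% interval -0.16 to 0.96, limma, adjusted p = 0.293). Muc2 was itself lower in both labelled double knockouts, which raises any ratio to it. Such ratios lay higher without overlap for Fcgbp (5.55 and 4.37 in controls, 8.62 and 5.76 in the labelled double knockouts), Ern2 and Creb3l1. Those of Tff3, Zg16, Spink4 and Spdef overlapped. Per unit of Muc2 in the same library, Agr2 was 5.07 and 6.26 times as high in controls and 9.47 and 9.60 times in the labelled double knockouts, which was not tested. Its paralog Agr3 fell from 4.97 and 3.86 FPKM to 0.123 and 0.644 (log2 fold change -1.99 ± 0.27, limma, adjusted p = 0.0177), a call lost without either control. Agr3 passed the filter on low values only through the controls, which fixed its direction. The authors' deposited comparison does not call it (q = 0.0927).

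Ern2 (chromosome 7, 129313407 to 129329730) encodes IRE1 beta, the form of the stress sensor IRE1 that is restricted to mucus-secreting epithelia. It stood at 5.39 and 6.33 FPKM in controls and at 18.95 and 15.7 in the labelled double knockouts. The lower labelled double knockout was 2.48 times as high as the higher control. The mean rose 2.96-fold, from 5.86 ± 0.671 to 17.3 ± 2.29 FPKM, with a log2 fold change of 1.42 ± 0.18 (95% interval 0.96 to 1.87, limma, adjusted p = 0.0150). The call held under all 8 alternatives that kept every library (limma, adjusted p of 0.0102 to 0.0382), and it was lost in each fit with 1 library removed (0.0516 to 0.0753) while the log2 fold change stayed at 1.29 to 1.54. The authors' deposited table, computed from the same libraries, gives 5.94 and 17.2 FPKM and calls Ern2 (q = 0.000868). It calls none of the other 9, where its q-values run from 0.298 for Creb3l1 to 0.976 for Fcgbp. That table calls 13.2% of the genes it tested.

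The ubiquitous paralog Ern1 (IRE1 alpha) stood at 5.38 and 6.56 FPKM in controls and at 7.24 and 5.45 in the labelled double knockouts (log2 fold change 0.07 ± 0.20, limma, adjusted p = 0.856). Within a library, Ern2 was 1.00 and 0.965 times as high as Ern1 in controls and 2.62 and 2.88 times in the labelled double knockouts. The difference between the fold changes of the paralogs was not tested.

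Creb3l1 (chromosome 2, 91822485 to 91864327), a factor released from the endoplasmic reticulum membrane by proteolysis, stood at 13.6 and 11.0 FPKM in controls and at 18.2 and 18.9 in the labelled double knockouts. Both labelled double knockouts lay above both controls, with a log2 fold change of 0.56 ± 0.17 (95% interval 0.13 to 1.00). It did not pass after adjustment over all genes (limma, adjusted p = 0.107), nor under any alternative (0.0940 to 0.331). None of its tested relatives passed in limma either, though the authors' deposited comparison calls Creb3l2 (q = 0.000868). Creb3, of the same family and named after its values were seen, stood at 31.1 and 37.7 FPKM in controls and at 52.7 and 54.96 in the labelled double knockouts, also higher without overlap (log2 fold change 0.64, limma, adjusted p = 0.0829). Creb3l2 stood at 17.1 and 20.1 FPKM in controls and 10.3 and 4.24 in the labelled double knockouts, and Creb3l3, a factor of liver and gut lipid metabolism, at 331 and 322 against 246 and 165 (limma, adjusted p = 0.0979 and 0.147). Creb3l4 had a log2 fold change of -0.12 (limma, adjusted p = 0.644).

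Among the 11 tested relatives of the 10 genes (of 22 found in the table), 1 rose and 1 fell, and their median log2 fold change was 0.07. Beside this, 3.79% of all genes tested were called higher and 5.85% lower. The one that rose was Tff2, the trefoil peptide of gastric mucus, which passed the filter on low values only through the labelled double knockouts, at 0.135 and 0 FPKM in controls and 400 and 244 in the labelled double knockouts (limma, adjusted p = 0.00133), beside the intestinal Tff3 described above. Tff1, the trefoil peptide of gastric surface cells, and the gastric or airway mucins Muc5ac, Muc5b and Muc6 were listed at 0 or did not exceed 0.0308 FPKM in any library. The Retnlb relatives Retn, Retnla and Retnlg did not exceed 0.550 FPKM. Spink3, a trypsin inhibitor gene of the same family as Spink4, stood at 3422 and 3518 FPKM in controls and at 2160 and 1052 in the labelled double knockouts, not called (limma, adjusted p = 0.130). The authors' deposited comparison does call Spink3 (q = 0.0383).

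The other goblet genes, a list of 36, had 35 genes that could be tested. Of these 4 rose and 5 fell, beside 3.79% and 5.85% of all genes tested, and the median log2 fold change was -0.11. Those that rose most were Fut2, a fucosyltransferase of mucin glycans (1.09 and 9.61 FPKM in controls, 145 and 54.4 in the labelled double knockouts, limma, adjusted p = 0.0496), Fxyd3, a modulator of the sodium pump (41.6 and 38.0, against 279 and 257, 0.00272), and Foxa1, a forkhead factor (6.43 and 5.09, against 14.6 and 15.4, 0.0186). Capn8, a calpain of gastric mucous cells, was the fourth, named after its values were seen (log2 fold change 0.91, limma, adjusted p = 0.0466). Those that fell most were Nlrp6, an inflammasome sensor that has been tied to goblet cell secretion (78.2 and 76.3, against 7.65 and 16.8, 0.0176), St6galnac1, a mucin sialyltransferase (4.10 and 4.39, against 0.207 and 0, 0.00809), and Dll4, a Notch ligand (5.59 and 5.11, against 1.62 and 1.06, 0.0196). Hepacam2 and Tpsg1, a tryptase, also fell and were named after their values were seen (log2 fold changes of -0.92 and -1.04, limma, adjusted p = 0.0312 and 0.0426). St6galnac1 passed the filter on low values only through the controls, which fixed its direction. The authors' deposited comparison does not call Capn8, Tpsg1 or St6galnac1 (q = 0.0622, 0.0577 and 0.114). It does call Fut2, Fxyd3, Foxa1, Nlrp6, Dll4 and Hepacam2. Reads of Fxyd3, Dll4 and Tpsg1 can be shared with the overlapping genes Lgi4, Gm14207 and Cacna1h, since the labels do not say whether strand was kept.

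Of the 9 limma calls on this list, that of Fxyd3 held when any 1 library was left out. Those of Foxa1, Fut2, Capn8, Hepacam2 and Tpsg1 failed in every fit with 1 library removed (limma, adjusted p of 0.0592 to 0.170). With every library kept, Fut2 was called in 2 of 8 alternatives, Capn8 in 4, Hepacam2 and Tpsg1 in 6 and Foxa1 in all 8. Those of Nlrp6 and St6galnac1 were lost without either control, and that of Dll4 without either control or double knockout replicate 2 (up to 0.103, 0.0657 and 0.0957).

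Of the fate genes, Foxa1 and Dll4 were called, as given above, and Atoh1, Gfi1, Foxa2, Foxa3 and Klf4 were not. Atoh1, the factor that commits progenitors to secretory fates, stood at 14.4 and 13.03 FPKM in controls and at 7.99 and 10.4 in the labelled double knockouts (log2 fold change -0.54 ± 0.19, limma, adjusted p = 0.140). Gfi1, which acts downstream of Atoh1, had a log2 fold change of -0.64 (0.124). Foxa3 had 0.66 and Foxa2 0.39 (limma, adjusted p = 0.0579 and 0.492), and Klf4, a factor of goblet cell differentiation, -0.19 (0.755). The row named Clca1, which RefSeq lists under Clca3a1, had 1.04 (limma, adjusted p = 0.0714).

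**Figure D4:**
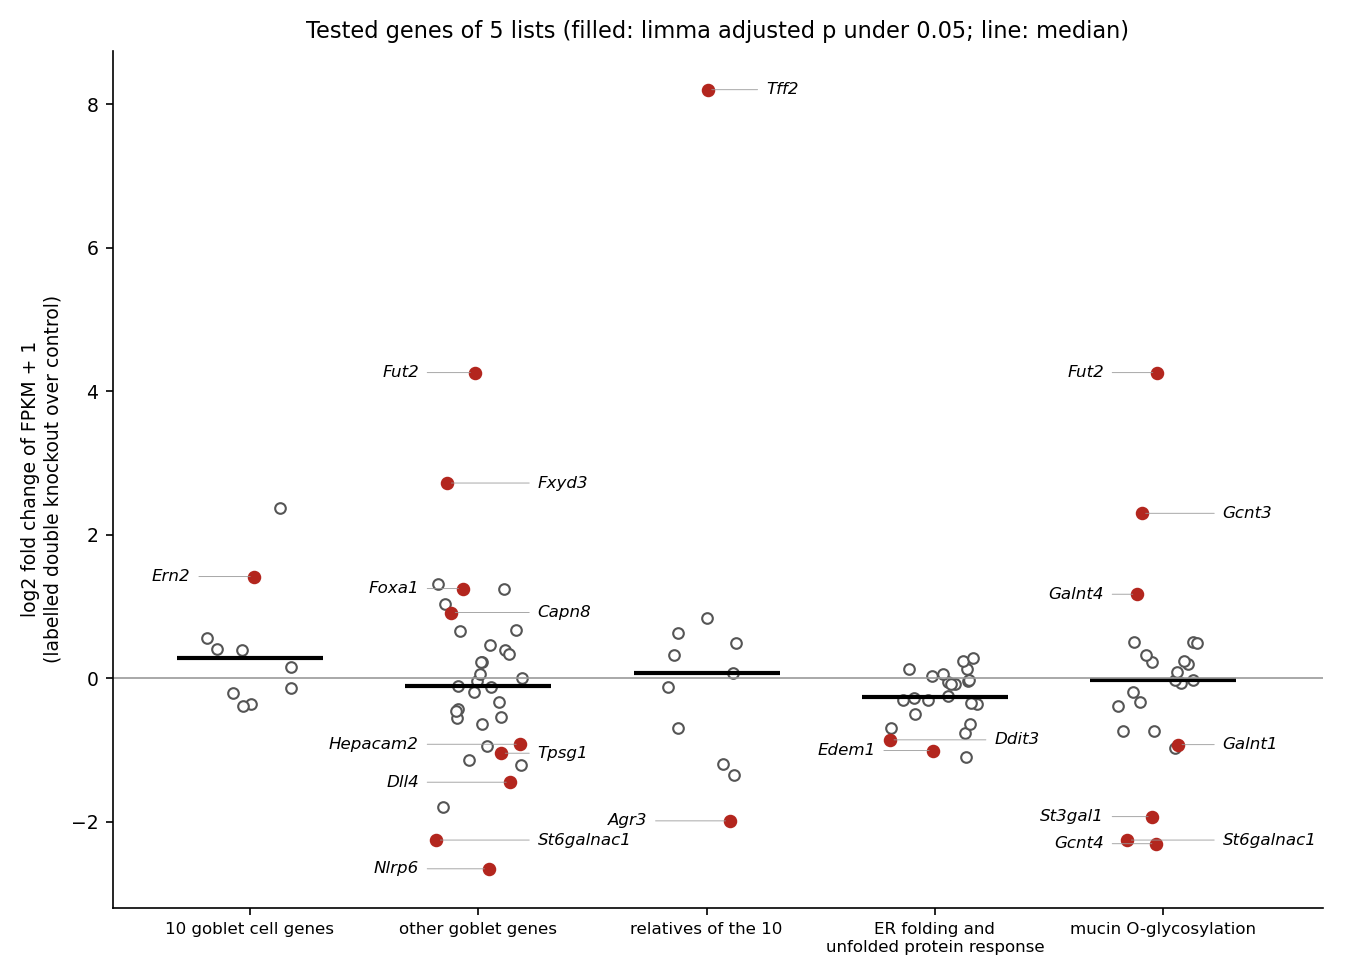
Log2 fold change of FPKM + 1 (labelled double knockout over control) of the tested genes in 5 lists; filled points passed a limma adjusted p of 0.05 and lines are medians. Each list has a median between -0.26 and 0.27, and the called genes lie on both sides of 0 in 3 of the 5 lists.

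Folding in the endoplasmic reticulum was looked at beside Ern2. Of 24 tested genes of the folding and unfolded protein response list, 0 rose and 2 fell, with a median log2 fold change of -0.26. Over all genes tested 3.79% were called higher and 5.85% lower, so the count is near that share. Xbp1, the transcript that IRE1 splices, stood at 110 and 119 FPKM in controls and at 172 and 90.7 in the labelled double knockouts (limma, adjusted p = 0.844); its spliced form cannot be told from these values. The genes that fell were Edem1, which sends misfolded glycoproteins to degradation (42.8 and 48.6, against 24.6 and 19.97, limma, adjusted p = 0.0340), and Ddit3, the stress factor CHOP (24.8 and 24.9, against 12.6 and 13.9, 0.0325). Neither call held in a fit with 1 library removed (limma, adjusted p of 0.0609 to 0.143). With every library kept, Edem1 was called in 6 of 8 alternatives and Ddit3 in 5. Ddit3 overlaps Mars in the files. The authors' deposited comparison calls Edem1 (q = 0.0281) and not Ddit3 (q = 0.488).

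The mucin O-glycosylation list moved in both directions: of 24 tested genes 3 rose and 4 fell, with a median log2 fold change of -0.02. The shares over all genes tested were 3.79% higher and 5.85% lower. Fut2 and St6galnac1, described above, are on this list too. Gcnt3, a branching enzyme of mucin glycans, rose from 21.0 and 31.2 FPKM to 138 and 122 (limma, adjusted p = 0.00926), and Galnt4, which starts O-glycan chains, from 23.7 and 25.1 to 61.96 and 50.97 (0.0204). Gcnt4, another branching enzyme, fell from 17.0 and 20.8 FPKM to 2.32 and 3.82 (0.01003), St3gal1, a sialyltransferase, from 5.18 and 5.01 to 0.458 and 0.758 (0.00969), and Galnt1, named after its values were seen, had a log2 fold change of -0.93 (0.0475). The calls of Galnt4, Gcnt4, St3gal1 and Galnt1 were lost without either control, and that of Gcnt3 without control replicate 1 (limma, adjusted p of up to 0.159). Those of Galnt4 and Galnt1 were also lost without double knockout replicate 1, and that of Galnt1 without double knockout replicate 2. With every library kept, Galnt1 was called in 4 of 8 alternatives. Galnt4 overlaps Poc1b in the files. St3gal1, like St6galnac1, passed the filter on low values only through the controls, which fixed its direction.

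Markers of the other cell types that this epithelium can hold were set beside the goblet cell genes, and their part in the goblet values was not tested. The counts below stand beside 3.79% of all genes tested called higher and 5.85% called lower. Of 12 enteroendocrine markers 7 fell and 0 rose (median log2 fold change -1.42), led by the hormone genes Nts, Sct and Gip (log2 fold changes of -4.50, -2.50 and -2.49, limma, adjusted p = 0.00136, 0.00388 and 0.00757). Neurod1, also among the 7, passed the filter on low values only through the controls (3.13 and 3.03 FPKM, against 0.428 and 0.301). The list summed to 940 and 813 FPKM in controls and to 268 and 174 in the labelled double knockouts. Of 14 Paneth markers 1 fell, Mptx2 (log2 fold change -3.59, limma, adjusted p = 0.00500), and the sums overlapped between the groups (46993 and 42436 FPKM in controls, 30221 and 65678 in the labelled double knockouts). That overlap came from the most abundant gene of the list, the defensin Defa24 (32235 and 30780 FPKM, against 25477 and 57893). Without it the sums were 14757 and 11656 FPKM in controls and 4744 and 7784 in the labelled double knockouts, with no overlap. Single markers separated in both directions. Lyz1 lay lower (8832 and 3041, against 1774 and 1956). Defa21 (0.465 and 246, against 339 and 1096), Defa22 (53.2 and 180, against 229 and 1001) and Mmp7 (141 and 73.3, against 242 and 201) lay higher. The groups did not overlap for 9 of the 14 markers, beside 60.7% of all genes tested, and 6 had a log2 fold change above 0. Of 8 tuft markers 1 fell, Ltc4s (-1.41, limma, adjusted p = 0.0109), with overlapping sums (217 and 482 FPKM, against 329 and 344). Of 11 enterocyte markers 4 fell, among them the digestive enzymes Lct, Sis and Treh (-6.85, -4.43 and -3.29, limma, adjusted p = 0.00233, 0.0235 and 0.00136). The median log2 fold change of the 11 was -0.47, with 4 above 0. Alpi (447 and 645 FPKM, against 1106 and 764) and Anpep (1721 and 1557, against 2514 and 2127) lay higher without overlap and were not called. The sums overlapped (44024 and 47015 FPKM, against 51036 and 34418). Without either control the calls of Gip and Sis were lost (limma, adjusted p of up to 0.0554 and 0.0832), as was that of Ltc4s (up to 0.0657), and those of Sis and Ltc4s also without double knockout replicate 2.

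Of 8 gastric mucous cell markers 5 were tested and called higher, but each passed the filter on low values only through the labelled double knockouts, which fixed their direction. They were led by Gkn2, Gkn1 and Tff2 (log2 fold changes of 10.13, 9.43 and 8.20, limma, adjusted p = 0.00133 for all 3). The authors' deposited comparison does not call these 3 (q = 0.534, 0.338 and 0.534). The sum of all 8 listed markers went from 0.314 and 0.230 FPKM in controls to 3400 and 1573 in the labelled double knockouts, with no overlap. The 3 untested markers stayed under the filter, including the defining mucins Muc5ac, which did not exceed 0.00906 FPKM, and Muc6. Crypt markers were called in 0 of 8 and immune markers in 0 of 6 tested (limma; 0 and 3 of them at an unadjusted p under 0.05, against 28.3% of all genes tested), and the 1 tested stromal marker, Vim, had a log2 fold change of -0.25 (limma, adjusted p = 0.391). The most abundant crypt marker was Olfm4 (0.68, limma, adjusted p = 0.381) and the most abundant immune one Mcpt1 (-2.89, limma, adjusted p = 0.0677). Of the erythroid markers only Alas2 was found in the table, at no more than 0.369 FPKM.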

How the data were processed

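The authors deposited a table with 1 column per library and no stated unit, taken as FPKM scaled between libraries because its values resemble the FPKM files deposited for each library alone and Cuffnorm is named. The mouse build mm9, Cuffdiff, Cuffnorm, Cufflinks (version 2.1.1) and TopHat2 (version 2.0.9) are named per the submitters' processing notes, with no roles given. The authors' comparison table gives group FPKM, p-values and q-values per the file headers. Whether strand was kept is not given in the sources used here.

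Rows sharing a symbol were summed (148 symbols), and 1026 symbols naming only short RNAs were dropped. A gene was tested if its mean reached 1 FPKM. limma (version 3.58.1, R version 4.3.3) fitted genotype to log2(FPKM + 1), its empirical Bayes step using an intensity trend, and was first tested on simulated data. The files used hold no counts; relative depth was read from the spacing of values under 0.3 FPKM. The files' loci count from 0, so 1 was added to each start.

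The 10 genes and the 15 gene lists were chosen with earlier results of these data known, so lists carry counts and medians but no test. Of 212 list entries 206 were found in the table. From each list outside the 10 the rule named up to 3 called genes per direction, or the most abundant where none was called, plus set relatives and fate genes. Alternatives changed the pseudocount, the filter, the scaling, the source of FPKM, the variance model and the replicate block, and left out each library.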

Additional observations from a re-analysis of the deposited data

How the results depend on the processing

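Without a filter but a mean above 0, 269 genes were called higher, against 413 here, and of the other goblet genes 2 were higher and 3 lower, against 4 and 5; folding genes called lower went from 2 to 0. With a mean of at least 5 FPKM, 3 other goblet genes, 2 O-glycosylation genes and 0 relatives were called lower, against 5, 4 and 1, in part because fewer of them were tested. Quantile normalization left 2 other goblet genes higher. Values estimated for each library alone, which move the median of all genes to 0.17 on the log2 scale from 0.02, turned Tff3 from -0.14 to 0.0058 and left 1 folding gene lower. The replicate numbers are not stated to pair the animals: deviations of same-numbered libraries correlated at -0.0049. With the replicate number as a block 311 genes were called higher and 476 lower, Ern2 kept its call (limma, adjusted p = 0.0334), folding genes called lower went to 0, and the calls of Fut2, Capn8, Hepacam2, Tpsg1 and Galnt1 were lost (limma, adjusted p of 0.0705, 0.0837, 0.0680, 0.0601 and 0.0822). Without 1 library at a time, genes called higher ran from 67 to 301 and lower from 86 to 384, and the 10 goblet cell genes had 0 calls. In those fits the log2 fold change ran from 1.29 to 1.54 for Ern2, from -0.16 to 0.48 for Fcgbp, from -0.63 to 5.37 for Retnlb, from -0.10 to 0.89 for Spink4 and from -0.37 to 0.092 for Tff3. Other goblet genes called higher stood at 1 in each and lower at 0 to 3, relatives lower at 0 to 2, folding genes lower at 0, and O-glycosylation genes at 0 to 3 in both directions. Leaving 1 library in a group assumes that it varies like the other group. With 2 libraries per group and unknown absolute depth, the intervals, not the missing calls, show what size of change these data leave possible.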
